A study of Mus musculus with 10 samples.

Results

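Collagen and laminin chains were followed in NMuMG/E9, a subclone of NMuMG, a mouse line grown from the epithelium of healthy mammary tissue, which undergoes an epithelial-mesenchymal transition when it is given TGFbeta. The chains were taken from the gene count table by symbol, as every gene named Col or Lam in the form of a collagen alpha chain or a laminin alpha, beta or gamma chain. That gave 55 of the 24454 genes in the table, 44 collagen and 11 laminin chains. All 10 libraries came from cells transfected with an siRNA at 20 nM and collected 3 days later. The siCtr 0 d group (control siRNA, no TGFbeta) had 2 libraries, replicates 1 and 3. The siIrf1 0 d group (an siRNA against Irf1, no TGFbeta) had 3, replicates 1 to 3. The siCtr TGFbeta group (control siRNA, TGFbeta at 2 ng/ml for the last 2 days) had 2 libraries, replicates 2 and 3. The siIrf1 TGFbeta group (siRNA against Irf1, the same TGFbeta) had 3, replicates 1 to 3. The siCtr groups thus shared only replicate number 3, and TGFbeta and replicate number are partly confounded in siCtr cells. Irf1 is a transcription factor of the interferon response, and the study asked for its part in the epithelial state and in the transition. The cells are a single subclone. Nothing in the labels states that replicate libraries were separate cultures, and the p-values therefore cover only the spread among these 10 samples, which could be technical.

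Collagens are trimers of alpha chains wound around each other, and laminins are cross-shaped trimers of an alpha, a beta and a gamma chain. Fibrillar collagens (types I, II, III, V, XI, XXIV and XXVII) form or regulate the banded fibrils of connective tissue. Collagen IV and the laminins form the networks of the basement membrane, the sheet on which epithelial cells such as those of the mammary gland rest. Collagens XV and XVIII lie at basement membranes, collagen VII anchors them to the tissue beneath, collagen VI forms beaded filaments, and collagens IX, XII and XVI (the FACIT class) sit on the surface of other fibrils. TGFbeta is a known inducer of collagen genes, acting through Smad transcription factors.

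Of the 55 chains, 31 had at least 10 counts in 2 or more libraries, and 30 of these passed the low-count filter of the edgeR fit and were tested. The chain that met the count rule and was not tested was Col2a1, the collagen II chain of cartilage, with 57 counts in all. Among 11 fibrillar chains 6 were tested (Col1a1, Col5a1, Col5a3, Col11a2, Col24a1 and Col27a1), and among 17 basement membrane chains 13, with 5 of 6 collagen IV and 8 of 11 laminin chains. The remaining 11 tested chains were Col15a1 and Col18a1 (called multiplexins), Col7a1, Col6a1, Col6a2 and Col6a3, Col9a3, Col12a1, Col16a1 and Col20a1, and Col17a1, a transmembrane collagen. The 24 chains under the count rule had at most 39 counts over the 10 libraries together, the value of Lama2. Of these, 6 had 0 counts in every library (Col1a2, Col9a1, Col9a2, Col19a1, Col25a1 and Col28a1), which allows up to 0.00764 CPM (counts scaled to library size, per 1e6) over all libraries, an upper limit that covers counting error only. Col3a1 and Col11a1 had 1 count each, Col5a2 and Lama4 2 each, Lama1 1, and Col4a6 3. Since a chain that is high in 1 group passes the filter through that group, counts below are over tested chains and do not stand for all 55.

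The libraries held 27547649 to 67301646 counts, of which the 55 chains took 0.157 to 0.532%. Irf1 was at 129 to 148 CPM in siCtr 0 d against 56.3 to 64.1 CPM in siIrf1 0 d, and at 106 to 111 CPM against 36.5 to 46.1 CPM with TGFbeta. Libraries also differed in how level went with the GC content of transcripts. As an index, the log2 level of genes of low GC content less that of genes of high GC content was -1.35 and -0.61 in siCtr 0 d, 0.73, 0.19 and 0.92 in siIrf1 0 d, -0.45 and -0.45 in siCtr TGFbeta, and between -0.39 and 0.76 in siIrf1 TGFbeta. The tested chains had a median GC content of 56.8% against 49.8% over all genes tested, so each effect was also computed with a trend on GC content and length removed. Its part in the results was not tested beyond that. Among 12 epithelial markers, Krt8 was at 2012 to 5292 CPM, Krt18 at 3191 to 7666 CPM and Cdh1 at 339 to 722 CPM over the libraries, whereas Cldn7 was at 0, and Epcam and Cldn3 were near 0, throughout.

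TGFbeta raised more of these chains than it lowered in cells with the control siRNA. Of 30 chains tested 21 rose and 3 fell by edgeR's quasi-likelihood test (Benjamini-Hochberg adjusted p under 0.05, over all genes tested), where 32.5% of all 13135 genes tested were called, 16.1% up and 16.3% down. The laminin chains Lamb2 and Lamc1 were among those that fell. The median change of the 30 chains was 1.69 on the log2 scale, against 0.02 over all genes. In siIrf1 cells 17 chains rose and 1 fell, where 21.3% of genes were called (11.6% up, 9.71% down), with a median of 1.46 against 0.02. With the GC and length trend removed, 17 rose and 4 fell there, since Lamb2, Lamc1 and Lamc3 were then called down. Of all 13135 genes, 1918 rose and 2438 fell in that setting.

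The Irf1 siRNA went with lower levels of several chains. Without TGFbeta 2 chains were called higher and 10 lower in siIrf1 than in siCtr cells, where 31.8% of genes were called (16.3% higher, 15.5% lower). With TGFbeta 1 was higher and 12 were lower, where 18.0% of genes were called (9.72% higher, 8.28% lower). With the trend removed the counts were 5 higher and 10 lower without TGFbeta, and 3 and 13 with it. Of all 13135 genes, 2125 were then called higher and 2608 lower without TGFbeta, and 1768 and 1818 with it. With TGFbeta fewer chains were called when either siCtr TGFbeta library was left out. That left 1 library in the group, and fewer of all genes tested were called as well. The comparisons share groups (siCtr 0 d enters TGFbeta in siCtr cells and the siRNA without TGFbeta, for example), so that they are not independent, and their values are given side by side.

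**Figure D1:**
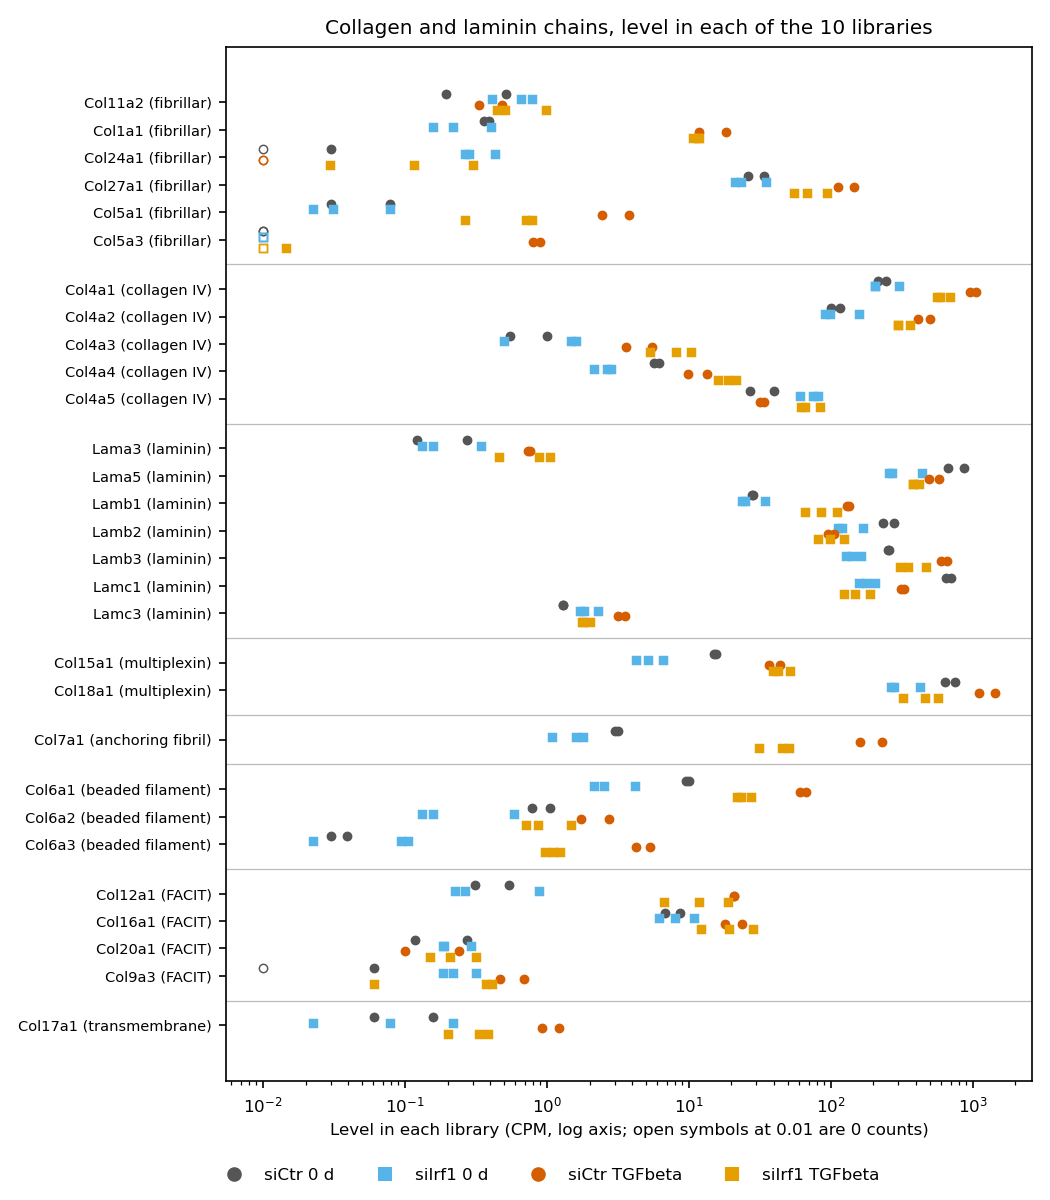
Level of tested chains in each of the 10 libraries, in CPM on a log axis, grouped by class, with 1 symbol per library and colour for the group; open symbols stand for 0 counts. Symbols of Col18a1, Col4a1, Lama5, Lamc1 and Lamb3 reach farthest to the right, while Lama3, Lamc3 and Col4a3 lie farther to the left. Among fibrillar chains Col27a1 passes 10 CPM in every library and Col1a1 does so with TGFbeta.

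The most abundant chains were Col18a1 and chains of the basement membrane. To compare genes, levels were divided by gene length (CPM per kb). In siCtr 0 d high levels were 120.2 ± 12.8 for Col18a1, 88.9 ± 4.93 for Lamc1, 67.5 ± 11.9 for Lama5, 61.7 ± 0.463 for Lamb3 and 45.7 ± 5.87 for Lamb2 (mean ± SD, n = 2). Lama5 and Lamb3 differed by less than these SDs. Col4a1 was at 34.6 ± 3.10 and Col4a2 at 16.9 ± 1.80 CPM per kb. The highest fibrillar chain, Col27a1, was at 3.92 ± 0.701 CPM per kb. In siIrf1 0 d the order differed: Col18a1 (55.8 ± 15.0) was followed by Col4a1 (35.9 ± 8.31) and Lamb3 (34.6 ± 4.30), and Lamc1 was at 23.7 ± 3.13 (n = 3). With TGFbeta, Col18a1 (221 ± 41.1), Col4a1 (152 ± 9.93) and Lamb3 (151 ± 10.7) led in siCtr cells. Col4a1 (92.7 ± 10.4), Lamb3 (90.3 ± 19.9) and Col18a1 (78.0 ± 21.1) led in siIrf1 cells, where these 3 did not differ beyond their SDs.

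Among the fibrillar chains, 4 of 6 rose with TGFbeta in siCtr cells and 3 of 6 in siIrf1 cells. Col27a1 (Entrez gene 373864, chromosome 4, 63214009 to 63334991 in GRCm38.p6, the build of all coordinates here), the chain of fibrillar collagen XXVII, was at 26.1 and 33.7 CPM in siCtr 0 d, 21.0, 35.0 and 23.3 in siIrf1 0 d, 147 and 112 in siCtr TGFbeta, and at 68.0, 94.6 and 55.4 in siIrf1 TGFbeta. Every TGFbeta library was above every library without it. It rose by 2.11 ± 0.33 (log2 fold change ± SE, adjusted p = 0.000833) in siCtr cells and by 1.46 ± 0.26 (adjusted p = 0.00273, or 0.93 with the GC and length trend removed) in siIrf1 cells. With TGFbeta the siIrf1 libraries were all below the siCtr libraries, at -0.83 ± 0.28 (adjusted p = 0.0684), a difference called with the trend removed (-0.61), with no filter on low counts (-0.87), with DESeq2 (-0.84) and with the replicate number as a block (-0.73). It was also called without siCtr 0 d replicate 1 (-0.88) or 3 (-0.88), siIrf1 0 d replicate 2 (-0.83) or siIrf1 TGFbeta replicate 2 (-1.07).

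Col1a1 (gene 12842, chromosome 11, 94936224 to 94953042), an alpha chain of collagen I, the main collagen of connective tissue, was at 0.393 and 0.364 CPM in siCtr 0 d and 0.220, 0.407 and 0.158 CPM in siIrf1 0 d. After TGFbeta the level was 18.3 and 11.7 CPM in siCtr and at 11.9, 11.6 and 10.7 CPM in siIrf1 cells. The groups with and without TGFbeta did not overlap, while the siRNAs overlapped in both conditions. It rose by 5.31 ± 0.41 (adjusted p = 9.75e-06) in siCtr and by 5.39 ± 0.34 (adjusted p = 4.03e-06) in siIrf1 cells. Its partner Col1a2, which joins Col1a1 in the usual collagen I trimer, had 0 counts in all 10 libraries. The siRNA difference of Col1a1 was -0.49 ± 0.44 without TGFbeta (adjusted p = 0.407), against -0.40 ± 0.28 with it (adjusted p = 0.381).

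The collagen V chains, which regulate fibril diameter, were close to absent without TGFbeta. Col5a1 (gene 12831, chromosome 2, 27886381 to 28039510) was at 0.0785 and 0.0303 CPM in siCtr 0 d and 0.0314, 0.0226 and 0.0791 CPM in siIrf1 0 d. After TGFbeta the level was 3.81 and 2.46 CPM in siCtr and 0.266, 0.708 and 0.782 CPM in siIrf1 cells. All siIrf1 TGFbeta libraries thus lay between the siCtr TGFbeta libraries and those without TGFbeta. From 3 counts to 279 in siCtr cells it rose 64.9-fold (95% counting interval 22.0 to 317), fitted at 5.85 ± 0.70 (adjusted p = 0.000161), and it rose by 3.67 ± 0.62 (adjusted p = 0.00182) in siIrf1 cells. With TGFbeta it was lower in siIrf1 cells by 2.40 on the log2 scale (-2.40 ± 0.41, adjusted p = 0.00386), and the call was lost when siCtr TGFbeta replicate 2 was left out (-2.09).

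Col5a3 (gene 53867, chromosome 9, 20770050 to 20815117), another collagen V chain, was detected almost only in the siCtr TGFbeta libraries, at 0.800 and 0.899 CPM. It had 0 counts in all 5 libraries without TGFbeta and in siIrf1 TGFbeta replicates 1 and 3, and 1 count (0.0145 CPM) in siIrf1 TGFbeta replicate 2. Against a floor of 3 counts over the siCtr 0 d group its 70 counts in siCtr TGFbeta were at least 16.3-fold higher (adjusted p = 0.00117). In siIrf1 cells no change was called (adjusted p = 0.488). With TGFbeta it was 114-fold lower in siIrf1 than in siCtr cells (95% counting interval 19.8 to 4562, adjusted p = 0.00119). With 0 counts in both groups without TGFbeta, the fit gave no usable test of whether its TGFbeta response differed between the siRNAs.

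Col24a1 and Col11a2 were not called for TGFbeta with either siRNA. For Col24a1 the test in siCtr cells rested on 1 count without TGFbeta and 0 with it. It could show little (-2.67 ± 2.43, edgeR adjusted p = 0.424). Col24a1 (gene 71355, chromosome 3, 145292472 to 145552013), a fibrillar chain of type XXIV, was at 0 and 0.0303 CPM in siCtr 0 d, 0.282, 0.430 and 0.264 CPM in siIrf1 0 d, 0 in both siCtr TGFbeta libraries, and 0.0295, 0.116 and 0.301 CPM in siIrf1 TGFbeta. All siIrf1 libraries exceeded the siCtr libraries of the same condition. Without TGFbeta it was 19.5-fold higher in siIrf1 cells (95% counting interval 3.29 to 790, from 1 count, fitted at 4.04 ± 1.15, adjusted p = 0.0277). That call was absent without siCtr 0 d replicate 1 (3.30) or 3 (6.72) and without siIrf1 0 d replicate 1 (4.13) or 3 (4.18). With TGFbeta the adjusted p was 0.0516, for a level at least 3.89-fold higher, and the difference was called without siCtr 0 d replicate 3 or siIrf1 TGFbeta replicate 1, with DESeq2, with the trend removed and with no filter. Col11a2 (gene 12815, chromosome 17, 34038919 to 34066684), a chain of the cartilage collagen XI, was at 0.196 and 0.515 CPM in siCtr 0 d, 0.408, 0.791 and 0.659 in siIrf1 0 d, 0.484 and 0.333 in siCtr TGFbeta, and at 0.443, 0.983 and 0.511 in siIrf1 TGFbeta. None of its 5 tests passed the threshold, and the siRNA difference under TGFbeta (0.68, adjusted p = 0.405) was called, at 1.13, with both the trend removed and the replicate block.

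Collagen IV rose with TGFbeta in 4 of 5 chains with either siRNA. Col4a1 and Col4a2, the chains of the common collagen IV network, were the most abundant. Col4a1 (gene 12826, chromosome 8, 11198423 to 11312889) was at 215 and 244 CPM in siCtr 0 d, 206, 302 and 206 in siIrf1 0 d, 1055 and 962 in siCtr TGFbeta, and at 563, 693 and 589 in siIrf1 TGFbeta. The siRNAs overlapped without TGFbeta and were apart with it. It rose by 2.14 ± 0.22 (adjusted p = 5.49e-05) in siCtr and by 1.37 ± 0.17 (adjusted p = 0.000305) in siIrf1 cells, and with TGFbeta it was at -0.71 ± 0.19 in siIrf1 against siCtr (adjusted p = 0.0267). The last call was lost when either siCtr TGFbeta library (-0.70 for replicate 2, -0.82 for replicate 3) or siIrf1 TGFbeta replicate 1 (-0.65) or 3 (-0.68) was left out.

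Col4a2 (gene 12827, chromosome 8, 11312805 to 11449287) was at 101 and 117 CPM in siCtr 0 d, 98.8, 158 and 90.8 in siIrf1 0 d, 500.3 and 414 in siCtr TGFbeta, and at 298, 362 and 299 in siIrf1 TGFbeta. It rose by 2.07 ± 0.27 in siCtr (adjusted p = 0.00028) and by 1.46 ± 0.22 in siIrf1 cells (adjusted p = 0.000811, or 0.97 with the trend removed), and no siRNA difference was called. The ratio of Col4a1 to Col4a2 per kb stayed narrow, at 2.05 ± 0.035 in siCtr 0 d, 2.03 ± 0.175 in siIrf1 0 d, 2.16 ± 0.149 in siCtr TGFbeta and 1.87 ± 0.040 in siIrf1 TGFbeta. These genes are transcribed away from each other, and in RefSeq their 5′ ends overlap by 85 bases. Col4a3 and Col4a4 form the same arrangement on chromosome 1, with 114 bases of overlap. Whether reads were counted by strand is not given in the sources used here, so reads from those overlaps cannot be told apart.

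Col4a3 and Col4a4, chains of the collagen IV network known from the kidney glomerulus, were lower in level and differed from each other. Col4a3 (gene 12828, chromosome 1, 82586921 to 82722059) was at 0.550 and 1.00 CPM in siCtr 0 d, 1.60, 1.49 and 0.501 in siIrf1 0 d, 5.54 and 3.60 in siCtr TGFbeta, and at 10.4, 5.30 and 8.12 in siIrf1 TGFbeta. It rose by 2.54 ± 0.56 (adjusted p = 0.00703) and 2.73 ± 0.44 (adjusted p = 0.00156), with overlap between siRNAs in both conditions. Col4a4 (gene 12829, chromosome 1, 82448419 to 82587034) was at 5.73 and 6.15 CPM in siCtr 0 d, 2.64, 2.85 and 2.16 in siIrf1 0 d, 13.5 and 9.96 in siCtr TGFbeta, and at 18.9, 21.5 and 16.1 in siIrf1 TGFbeta. The siIrf1 libraries were thus all below siCtr without TGFbeta and all above it with TGFbeta. Col4a4 rose by 0.98 ± 0.25 in siCtr (adjusted p = 0.0128, at 0.97 and uncalled when siCtr 0 d replicate 1 was left out, and at 0.83 for siCtr TGFbeta replicate 2) and by 2.88 ± 0.22 in siIrf1 cells (adjusted p = 1.04e-05). The siRNA difference was -1.22 ± 0.23 without TGFbeta (adjusted p = 0.0041), against 0.68 ± 0.23 with it (adjusted p = 0.0617, called at 0.70 with the trend removed, 0.71 with the replicate block and 0.67 with DESeq2).

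Col4a5 (gene 12830, chromosome X, 141475370 to 141689236), the X-linked partner of those chains, differed with the siRNA, while its change with TGFbeta was small. It was at 27.2 and 40.1 CPM in siCtr 0 d, 60.9, 75.3 and 81.6 in siIrf1 0 d, 31.9 and 33.8 in siCtr TGFbeta, and at 61.8, 66.1 and 84.0 in siIrf1 TGFbeta. Every siIrf1 library was above every siCtr library. The difference was 1.11 ± 0.23 without TGFbeta (adjusted p = 0.00607, uncalled without siCtr 0 d replicate 1, 0.84) and 1.10 ± 0.23 with it (adjusted p = 0.00848, uncalled without siCtr TGFbeta replicate 2, 1.01, or 3, 1.11). Its TGFbeta changes were -0.04 ± 0.24 (adjusted p = 0.921) and -0.04 ± 0.19 (adjusted p = 0.925), and the latter was called, at -0.27, with the trend removed and the replicate block.

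**Figure D2:**
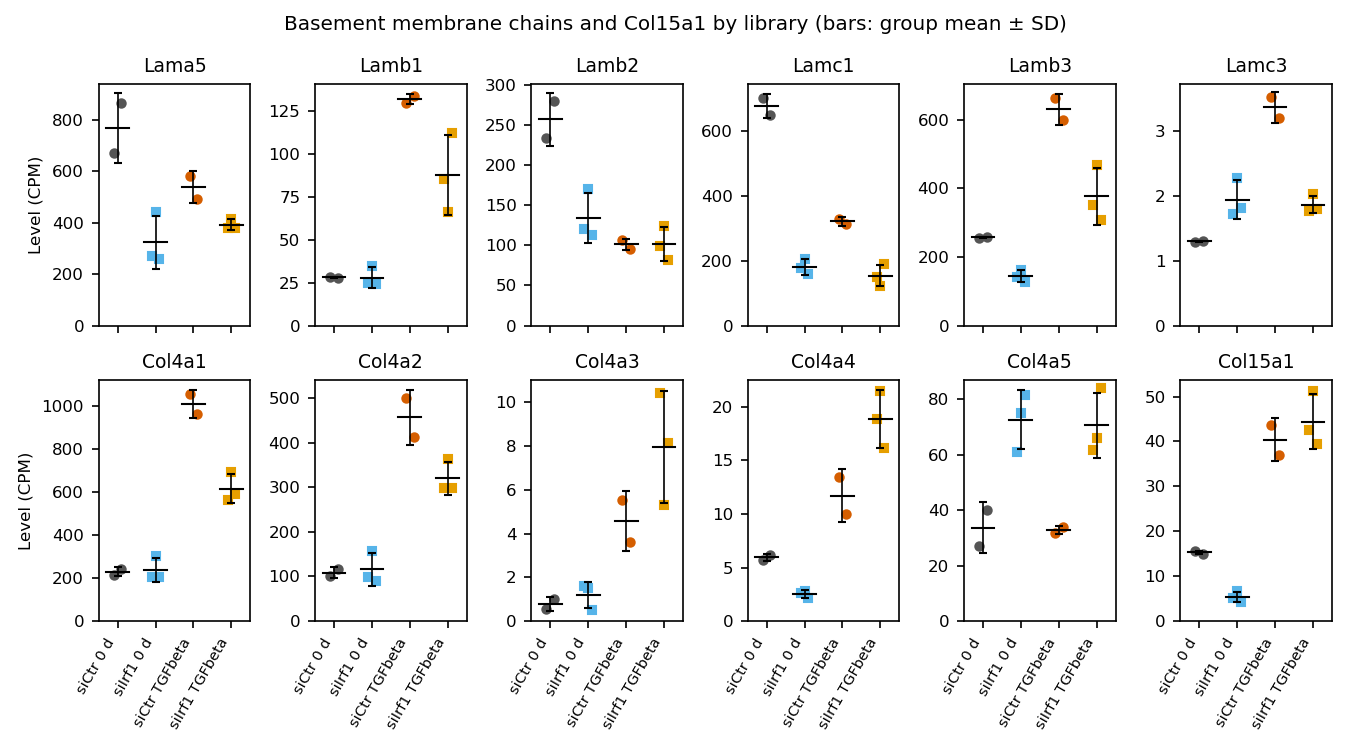
Level in CPM (linear axes from 0) of basement membrane chains and Col15a1 in each library by group, with points for libraries and black bars for the group mean ± SD. Lamb1 and Lamb2 move in opposite directions with TGFbeta in siCtr cells, Lamc1 stands at 651 to 704 CPM in siCtr 0 d and at 123 to 206 CPM in the siIrf1 libraries, and Col4a5 parts by siRNA.

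The laminins moved in both directions. In siCtr cells TGFbeta raised Lama3, Lamb1, Lamb3 and Lamc3 and lowered chains that included Lamb2 and Lamc1. In siIrf1 cells Lama3, Lamb1 and Lamb3 rose. The siRNA went with lower levels of chains that included Lama5, Lamb2, Lamb3 and Lamc1 without TGFbeta, and Lamb3, Lamc1 and Lamc3 with it. No laminin chain was called higher by edgeR's test or by DESeq2, and at an unadjusted p under 0.05 there was 1 higher chain, Lamc3, without TGFbeta and 0 with it. Of all 13135 genes, 5868 were under that edgeR p without TGFbeta and 4075 with it, in either direction. Lamc3 was called higher without TGFbeta once the GC and length trend was removed (0.87, or 0.89 with the replicate block as well). In bulk RNA, fewer cells with a transcript and less of it per cell cannot be told apart.

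The beta chains Lamb1 and Lamb2, which take the same place in laminin trimers, changed in opposite directions in siCtr cells. Lamb1 (gene 16777, chromosome 12, 31265146 to 31329644) was at 28.3 and 27.9 CPM in siCtr 0 d, 25.0, 34.6 and 23.9 in siIrf1 0 d, 129 and 134 in siCtr TGFbeta, and at 84.9, 65.9 and 112 in siIrf1 TGFbeta. It rose by 2.23 ± 0.27 (adjusted p = 0.000173) and by 1.65 ± 0.22 (adjusted p = 0.000372), and its difference between siRNAs with TGFbeta was not called (-0.59 ± 0.23, adjusted p = 0.112, called at -0.80 without siIrf1 TGFbeta replicate 3). Lamb2 (gene 16779, chromosome 9, 108479847 to 108490530) was at 234 and 280.3 CPM in siCtr 0 d, 120.0, 169.8 and 113 in siIrf1 0 d, 106 and 95.8 in siCtr TGFbeta, and at 98.9, 124 and 81.8 in siIrf1 TGFbeta. The siCtr 0 d libraries stood above all others. Lamb2 fell by 1.35 on the log2 scale in siCtr cells (-1.35 ± 0.25, adjusted p = 0.00244). In siIrf1 cells it changed by -0.40 ± 0.20 (adjusted p = 0.205), called at -0.87 with the trend removed. Without TGFbeta it was lower with the Irf1 siRNA (-0.94 ± 0.22, adjusted p = 0.0115, uncalled without siCtr 0 d replicate 3, -0.73). The ratio of Lamb1 to Lamb2 per kb went from 0.107 ± 0.015 to 1.27 ± 0.121 in siCtr cells and from 0.203 ± 0.0039 to 0.894 ± 0.409 in siIrf1 cells.

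Lamc1 (gene 226519, chromosome 1, 153218922 to 153332786), the gamma chain of most laminins, had the smallest adjusted p of all 30 chains for the siRNA without TGFbeta. It was at 704 and 651 CPM in siCtr 0 d, 177, 206 and 159 in siIrf1 0 d, 330.5 and 313 in siCtr TGFbeta, and at 149.5, 123 and 191 in siIrf1 TGFbeta. The siCtr libraries were above the siIrf1 libraries in both conditions. The difference was -1.90 ± 0.19 without TGFbeta (adjusted p = 0.000302), against -1.06 ± 0.19 with it (adjusted p = 0.00447). TGFbeta lowered Lamc1 in siCtr cells (-1.08 ± 0.21, adjusted p = 0.00336). In siIrf1 cells its change was -0.23 ± 0.17 (adjusted p = 0.417), called at -0.56 with the trend removed.

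Lama5 (gene 16776, chromosome 2, 180176373 to 180225904), the main epithelial alpha chain, was at 673 and 864 CPM in siCtr 0 d, 271, 441 and 258 in siIrf1 0 d, 582 and 494 in siCtr TGFbeta, and at 381, 416 and 380.4 in siIrf1 TGFbeta. Without TGFbeta the siIrf1 libraries lay below the siCtr libraries (-1.25 ± 0.23, adjusted p = 0.00393). Its TGFbeta change in siCtr cells depended on the processing: it was -0.51 ± 0.26 (adjusted p = 0.147), and was called at -1.10 with the trend removed, -0.74 with the replicate block and -0.51 without siIrf1 0 d replicate 2. In siIrf1 cells it was 0.28 ± 0.21 (adjusted p = 0.412), called at 0.57 without siIrf1 0 d replicate 2. With the trend removed it was -0.29 and not called (adjusted p = 0.0705).

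Lama3 and Lamb3 are chains of the laminin of hemidesmosomes, the contacts that hold epithelial cells to the basement membrane. Lamb3 (gene 16780, chromosome 1, 193294353 to 193343878) was at 256 and 258 CPM in siCtr 0 d, 142, 163 and 127 in siIrf1 0 d, 661 and 598 in siCtr TGFbeta, and at 351, 469 and 309 in siIrf1 TGFbeta. It rose by 1.29 ± 0.21 (adjusted p = 0.00107) and 1.38 ± 0.17 (adjusted p = 0.000259), and it was lower with the Irf1 siRNA at -0.83 ± 0.19 without TGFbeta (adjusted p = 0.00925, or -0.49 with the trend removed) and -0.74 ± 0.19 with it (adjusted p = 0.0208). The call with TGFbeta was absent without siCtr TGFbeta replicate 2 (-0.72) or 3 (-0.86), without siIrf1 TGFbeta replicate 1 (-0.69) and with only the compared groups fitted (-0.75).

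Lama3 (gene 16774, chromosome 18) was far lower, at 0.275 and 0.121 CPM in siCtr 0 d, 0.345, 0.158 and 0.132 in siIrf1 0 d, 0.763 and 0.733 in siCtr TGFbeta, and at 0.885, 0.462 and 1.05 in siIrf1 TGFbeta. It rose by 1.95 ± 0.61 (adjusted p = 0.0326, uncalled when any of siCtr 0 d replicate 3 (1.55) and siCtr TGFbeta replicates 2 (2.01) and 3 (2.05) was left out) and by 1.91 ± 0.47 (adjusted p = 0.0149, uncalled without siIrf1 0 d replicate 2, 1.73, or 3, 1.67). Lamc3 (gene 23928, chromosome 2, 31887281 to 31949083), a gamma chain of few tissues, was at 1.30 CPM in both siCtr 0 d libraries, 1.73, 2.28 and 1.82 in siIrf1 0 d, 3.53 and 3.20 in siCtr TGFbeta, and at 1.77, 2.02 and 1.81 in siIrf1 TGFbeta. The siCtr TGFbeta libraries stood above all others. It rose in siCtr cells (1.37 ± 0.25, adjusted p = 0.00236), while in siIrf1 cells it changed by -0.06 ± 0.20 (adjusted p = 0.891), called at -0.52 with the trend removed. With TGFbeta it was lower with the Irf1 siRNA (-0.85 ± 0.22, adjusted p = 0.0233), and the call was lost when either siCtr TGFbeta library (-0.83 and -0.96 for replicates 2 and 3) or siIrf1 TGFbeta replicate 1 (-0.81) or 3 (-0.82) was left out, and with only the compared groups fitted (-0.85). Without TGFbeta the difference was 0.58 ± 0.24 (adjusted p = 0.0852), called at 0.87 with the trend removed.

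The multiplexins have C-terminal fragments that are released as endostatin or a relative of it. Both chains rose with TGFbeta in siCtr cells, and both were lower with the Irf1 siRNA without TGFbeta. They differed in the comparisons that use the siIrf1 TGFbeta group. Col18a1 (gene 12822, chromosome 10, 77052178 to 77166530) was at 644 and 749 CPM in siCtr 0 d, 281, 423 and 265 in siIrf1 0 d, 1447 and 1110.3 in siCtr TGFbeta, and at 461, 569 and 325 in siIrf1 TGFbeta. The siRNAs did not overlap in either condition. It was lower with the Irf1 siRNA without TGFbeta (-1.11 ± 0.27, adjusted p = 0.0126, uncalled without siIrf1 0 d replicate 3, -0.98) and with it (-1.50 ± 0.27, adjusted p = 0.00458). Its rise with TGFbeta in siCtr cells (0.88 ± 0.30, adjusted p = 0.0462, or 0.40 with the trend removed) lost its call when any of these libraries was left out: siCtr 0 d replicate 1 (0.81), siIrf1 0 d replicates 1 (0.88) and 3 (0.88), both siCtr TGFbeta libraries (0.76 for replicate 2, 1.13 for replicate 3) and siIrf1 TGFbeta replicate 1 (0.88). In siIrf1 cells the change was 0.48 ± 0.24 (adjusted p = 0.205).

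Col15a1 (gene 12819, chromosome 4, 47207655 to 47313167) was at 15.5 and 15.0 CPM in siCtr 0 d, 5.18, 6.63 and 4.25 in siIrf1 0 d, 43.7 and 37.0 in siCtr TGFbeta, and at 42.6, 51.3 and 39.4 in siIrf1 TGFbeta. The siIrf1 libraries were below siCtr without TGFbeta and overlapped them with it. It rose by 1.40 ± 0.24 (adjusted p = 0.00146) and by 3.05 ± 0.21 (adjusted p = 6.12e-06). The siRNA difference was -1.51 ± 0.22 without TGFbeta (adjusted p = 0.00131), against 0.14 ± 0.21 with it (adjusted p = 0.72).

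Col7a1, the only chain of anchoring fibrils, had the smallest adjusted p of the chains for TGFbeta with either siRNA. It (gene 12836, chromosome 9, 108953586 to 108984875) was at 3.02 and 3.15 CPM in siCtr 0 d, 1.60, 1.81 and 1.08 in siIrf1 0 d, 229.9 and 162 in siCtr TGFbeta, and at 45.5, 51.2 and 31.0 in siIrf1 TGFbeta. The groups did not overlap in any comparison. It rose by 5.99 ± 0.36 in siCtr (adjusted p = 3.77e-06) and by 4.83 ± 0.28 in siIrf1 cells (adjusted p = 3.35e-06). It was lower with the Irf1 siRNA, by 1.04 on the log2 scale without TGFbeta (-1.04 ± 0.29, adjusted p = 0.0239) and by 2.20 with it (-2.20 ± 0.26, adjusted p = 0.000595). The call without TGFbeta was absent without siCtr 0 d replicate 1 (-1.08) or 3 (-0.94) and without siIrf1 0 d replicate 1 (-1.09) or 3 (-0.85).

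Collagen VI chains differed in level from each other. Col6a1 (gene 12833, chromosome 10, 76708792 to 76726044) was at 10.0 and 9.61 CPM in siCtr 0 d, 2.51, 4.16 and 2.14 in siIrf1 0 d, 67.2 and 61.0 in siCtr TGFbeta, and at 23.5, 27.3 and 21.8 in siIrf1 TGFbeta, with no overlap between groups. It rose by 2.71 ± 0.30 (adjusted p = 9.14e-05) and 3.04 ± 0.25 (adjusted p = 2.08e-05), and was lower with the Irf1 siRNA (-1.73 ± 0.26 without TGFbeta, adjusted p = 0.00164) under both conditions, the difference under TGFbeta being -1.40 ± 0.25 (adjusted p = 0.00458). Col6a3 (gene 12835, chromosome 1, 90766860 to 90844001), the chain with the long N-terminal extension, was at 0.0393 and 0.0303 CPM in siCtr 0 d, 0.0942, 0.0226 and 0.105 in siIrf1 0 d, 4.22 and 5.29 in siCtr TGFbeta, and at 0.974, 1.10 and 1.23 in siIrf1 TGFbeta. It rose 135-fold in siCtr cells, from 2 counts (95% counting interval 37.0 to 1116, adjusted p = 9.52e-06), rose by 3.90 ± 0.40 in siIrf1 cells (adjusted p = 6.83e-05), and was lower with the Irf1 siRNA under TGFbeta (-2.10 ± 0.29, adjusted p = 0.00114).

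The third collagen VI chain, Col6a2 (gene 12834, chromosome 10, 76595756 to 76623630), was at 0.785 and 1.06 CPM in siCtr 0 d, 0.157, 0.588 and 0.132 in siIrf1 0 d, 2.75 and 1.73 in siCtr TGFbeta, and at 0.708, 1.47 and 0.872 in siIrf1 TGFbeta. It rose in siIrf1 cells (1.76 ± 0.53, adjusted p = 0.0392) and was not called in siCtr cells (1.28 ± 0.58, adjusted p = 0.116). The rise was uncalled without siIrf1 0 d replicate 1 (1.49) or 3 (1.41), either siCtr TGFbeta library (1.78 each), siIrf1 TGFbeta replicate 2 (1.36) or 3 (1.87), and with only the compared groups fitted (1.77), and was 2.83 without siIrf1 0 d replicate 2. Without TGFbeta its siRNA difference was -1.60 ± 0.60 (adjusted p = 0.0664), called at -2.17 with the replicate block, -1.73 with the trend removed and the block, -2.67 without siIrf1 0 d replicate 2, -1.59 without siIrf1 TGFbeta replicate 2 and -1.62 with DESeq2.

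The FACIT chains and Col17a1 were minor in level. Col12a1 (gene 12816, chromosome 9, 79598987 to 79721141) was at 0.314 and 0.546 CPM in siCtr 0 d, 0.879, 0.226 and 0.264 in siIrf1 0 d, 21.0 and 20.9 in siCtr TGFbeta, and at 11.8, 6.71 and 19.0 in siIrf1 TGFbeta, and rose by 5.57 ± 0.70 (adjusted p = 0.000253) and 4.82 ± 0.56 (adjusted p = 0.00018). Col16a1 (gene 107581, chromosome 4, 130047817 to 130099277) was at 6.83 and 8.64 CPM in siCtr 0 d, 7.94, 10.9 and 6.20 in siIrf1 0 d, 23.7 and 17.9 in siCtr TGFbeta, and at 19.2, 28.4 and 12.3 in siIrf1 TGFbeta. TGFbeta libraries were above the others with the same siRNA for both genes, and the siRNAs were not called apart. Col16a1 rose by 1.43 ± 0.40 (adjusted p = 0.0206, at 1.31 and uncalled when siCtr 0 d replicate 1 was left out, and at 1.29 for siCtr TGFbeta replicate 2) and by 1.26 ± 0.32 (adjusted p = 0.0183, or 0.73 with the trend removed, uncalled without siIrf1 0 d replicate 1, 1.23, or 3, 1.09).

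Col9a3 (gene 12841, chromosome 2, 180598102 to 180622192), a chain of cartilage collagen IX, was at 0 and 0.0606 CPM in siCtr 0 d, 0.220, 0.317 and 0.185 in siIrf1 0 d, 0.688 and 0.466 in siCtr TGFbeta, and at 0.413, 0.376 and 0.0602 in siIrf1 TGFbeta. It was 17.8-fold higher with TGFbeta in siCtr cells, from 2 counts (95% counting interval 4.68 to 151, fitted at 4.00 ± 1.00, adjusted p = 0.0123), a call lost when siCtr 0 d replicate 1 (3.26) or siCtr TGFbeta replicate 2 (3.74) was left out and fitted at 7.60 without siCtr 0 d replicate 3, where the group has 0 counts. Its usual partners Col9a1 and Col9a2 had 0 counts everywhere. Col17a1 (gene 12821, chromosome 19, 47646341 to 47692042), the collagen of hemidesmosomes, was at 0.157 and 0.0606 CPM in siCtr 0 d, 0.220, 0.0226 and 0.0791 in siIrf1 0 d, 1.23 and 0.932 in siCtr TGFbeta, and at 0.384, 0.202 and 0.331 in siIrf1 TGFbeta. It rose in siCtr cells (3.35 ± 0.71, adjusted p = 0.00503) and was lower with the Irf1 siRNA under TGFbeta (-1.88 ± 0.50, adjusted p = 0.0267), a call lost with either siCtr TGFbeta library left out (-1.71 for replicate 2, -2.10 for replicate 3) and likewise with siIrf1 TGFbeta replicate 2 (-1.60) or 3 (-1.97). In siIrf1 cells its change with TGFbeta was 1.54 ± 0.62 (adjusted p = 0.116, called at 2.51 without siIrf1 0 d replicate 1). Col20a1 ranged from 0.0999 to 0.318 CPM and was not called in any comparison.

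**Figure D3:**
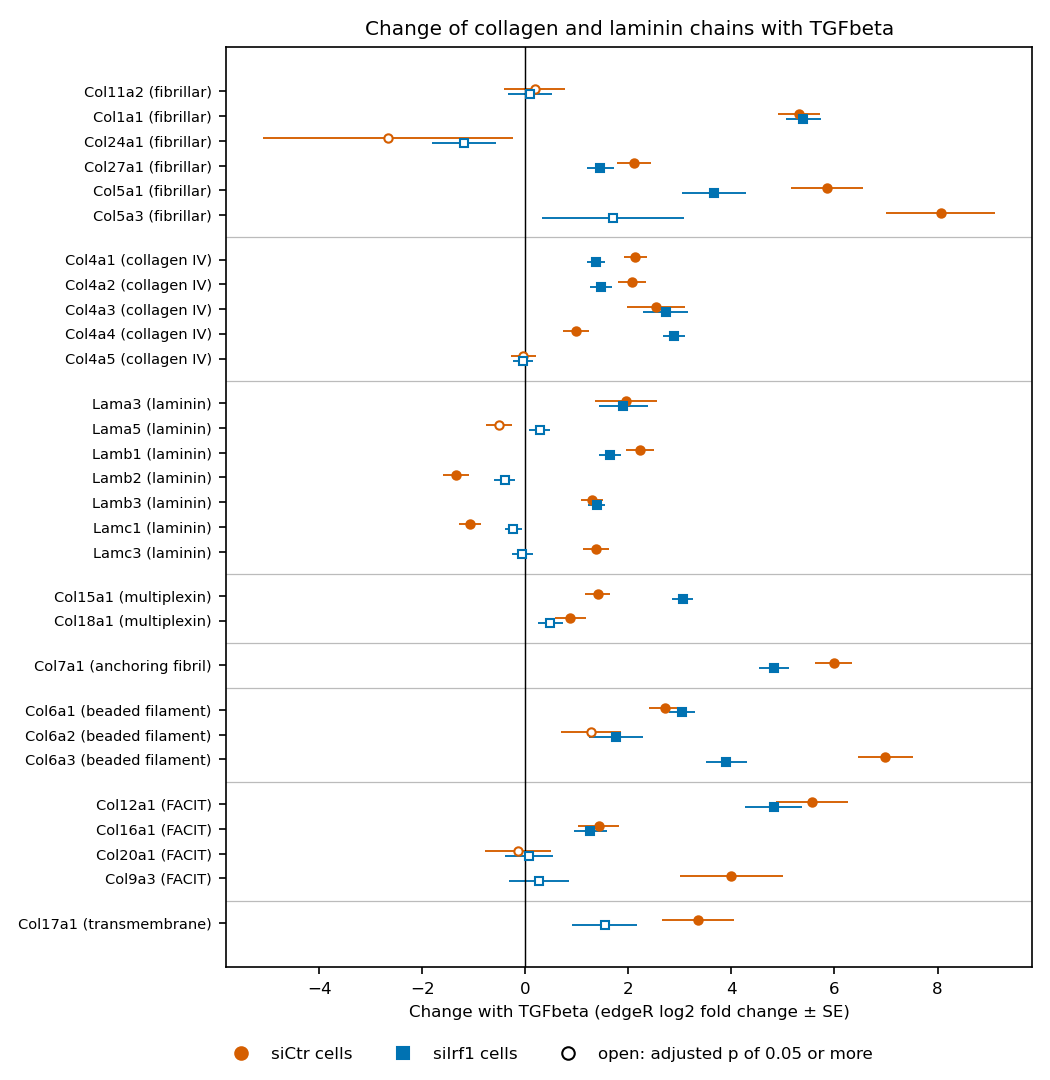
Change with TGFbeta of tested chains (edgeR log2 fold change ± SE) in siCtr cells (circles) and siIrf1 cells (squares), by class, with open symbols for an adjusted p of 0.05 or more. Fibrillar, collagen VI and Col7a1 symbols reach beyond 5, collagen IV chains lie between -0.04 and 2.88, and laminins lie on both sides of 0.

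The sequences upstream of Col7a1, Col5a3 and Col6a3 are shown because these chains had the smallest adjusted p-values for the siRNA under TGFbeta. They are RefSeq promoter sequences of GRCm38.p6, 5′ to 3′ on the strand of the gene, from 250 bases before the start site, with 50 bases of Col5a3 and 30 of Col6a3 next to the start left out because they lie inside the gene as RefSeq draws it. Capitals mark AGAC, a short site that Smad proteins can bind, on either strand (read as GTCT on the other), and, in Col6a3 once, AANNGAAA, a core bound by interferon regulatory factors, read on the other strand.
Col7a1, chr9:108953336-108953585, plus strand: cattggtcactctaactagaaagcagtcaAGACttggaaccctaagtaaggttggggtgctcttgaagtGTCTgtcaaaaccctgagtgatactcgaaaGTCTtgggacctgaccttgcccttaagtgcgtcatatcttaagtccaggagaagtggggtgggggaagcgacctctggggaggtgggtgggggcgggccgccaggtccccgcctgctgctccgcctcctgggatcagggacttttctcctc
Col5a3, chr9:20815118-20815317, minus strand: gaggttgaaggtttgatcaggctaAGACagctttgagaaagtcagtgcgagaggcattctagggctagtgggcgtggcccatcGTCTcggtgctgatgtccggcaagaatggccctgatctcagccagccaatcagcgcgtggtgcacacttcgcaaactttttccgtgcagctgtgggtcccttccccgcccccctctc
Col6a3, chr1:90844002-90844221, minus strand: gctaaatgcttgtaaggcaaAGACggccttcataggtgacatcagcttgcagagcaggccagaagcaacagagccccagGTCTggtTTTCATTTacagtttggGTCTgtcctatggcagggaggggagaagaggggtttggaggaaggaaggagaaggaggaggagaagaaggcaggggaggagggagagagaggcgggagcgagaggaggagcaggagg
AGAC occurred 3 times in the Col7a1 stretch, beginning 221, 181 and 151 bases before the start, 2 times in that of Col5a3 and 3 times in that of Col6a3. The AANNGAAA match of Col6a3 began 164 bases before the start. Such matches are common: over 300-base windows (250 before to 50 after the start), AGAC on either strand was in 89.5% of 27025 genes with a promoter in the table and in 37 of the 40 chains matched (92.5%). AANNGAAA was in 26.7% of genes and 8 chains (20.0%), the E-box CACCTG of Snail and Zeb factors in 22.6% and 7 chains (17.5%), and the AP-1 motif TGANTCA in 8.97% and 1 chain, Col6a1 (2.5%). Overlapping matches were counted once per window, and a match is a description of letters only.

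Fibrillar and basement membrane chains were compared as classes. With TGFbeta in siCtr cells the median change was 3.71 over the 6 tested fibrillar chains (4 rose, 0 fell) and 1.29 over the 13 basement membrane chains (8 rose, 3 fell), a difference of 2.42. Within the latter, collagen IV had a median of 2.07 (4 of 5 rose) and the laminins of 0.39 (4 rose and 3 fell of 8). The difference was 4.01 without siIrf1 0 d replicate 2 or siIrf1 TGFbeta replicate 3, and 4.01 with only the compared groups fitted, since Col24a1 was then not tested. In siIrf1 cells the medians were 1.58 (3 rose, 0 fell) and 1.37 (7 rose, 1 fell), a difference of 0.21 that changed sign with DESeq2 (-0.26), with only the compared groups fitted (-0.59) and without siIrf1 TGFbeta replicate 2 (-0.58), and was 2.60 under the stricter filter and 0.62 without siIrf1 TGFbeta replicate 3. The fibrillar median was above the basement membrane median in siCtr cells under the alternatives run, while the sign of the difference in siIrf1 cells varied between them. The alternatives share the same libraries, and Col5a3 passed the filter through siCtr TGFbeta, where it was high. Holding under them is therefore no independent support for a difference between the classes.

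For the siRNA the classes were closer. Without TGFbeta the medians were -0.09 for fibrillar chains (1 higher, 0 lower) and -0.01 for basement membrane chains (1 higher, 6 lower), and the difference of -0.08 changed sign in 7 alternatives, among them the multiplexins counted with the basement membrane chains (0.62) and each siCtr 0 d library left out (0.18 without replicate 1, 0.39 without replicate 3) or siIrf1 0 d replicate 1 (0.37) or 2 (0.20). With TGFbeta they were -0.62 (0 higher, 2 lower) and -0.51 (1 higher, 5 lower), and the difference of -0.10 was 0.0372 without siCtr TGFbeta replicate 2. The laminins alone had medians of -0.77 and -0.58, against -0.03 and 0.05 over all genes. A median over a class of 6 chains, 2 of them (Col5a3 and Col24a1) at or near 0 counts, rests on few values and on fitted changes that depend on the prior count.

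Summed levels per kb gave the share of each class. The fibrillar chains summed to 4.06 ± 0.717 CPM per kb in siCtr 0 d, 3.67 ± 1.05 in siIrf1 0 d, 20.1 ± 4.18 in siCtr TGFbeta and 11.7 ± 2.72 in siIrf1 TGFbeta (mean ± SD over 2, 3, 2 and 3 libraries). Collagen IV summed to 57.5 ± 6.39, 65.5 ± 14.4, 230.0 ± 19.7 and 156 ± 15.7, and the laminins to 312 ± 19.1, 142 ± 20.4, 302 ± 19.0 and 192 ± 17.8 in the same order. The laminin sum thus differed between siCtr groups by less than the SDs, while its makeup changed. Fibrillar chains made up 0.805 ± 0.0800% of the summed level of all chains in siCtr 0 d, 1.34 ± 0.150% in siIrf1 0 d, 2.42 ± 0.236% in siCtr TGFbeta and 2.50 ± 0.271% in siIrf1 TGFbeta, and basement membrane chains 73.7 ± 0.688%, 76.9 ± 1.71%, 64.6 ± 2.53% and 75.5 ± 3.35%. Not divided by length, the fibrillar shares were 0.913, 1.57, 2.89 and 2.92%. Within the fibrillar sum Col27a1 exceeded Col1a1 by 61.8 times per kb in siCtr 0 d and 6.83 times in siCtr TGFbeta, and by 85.1 and 4.94 times in siIrf1 cells.

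**Figure D4:**
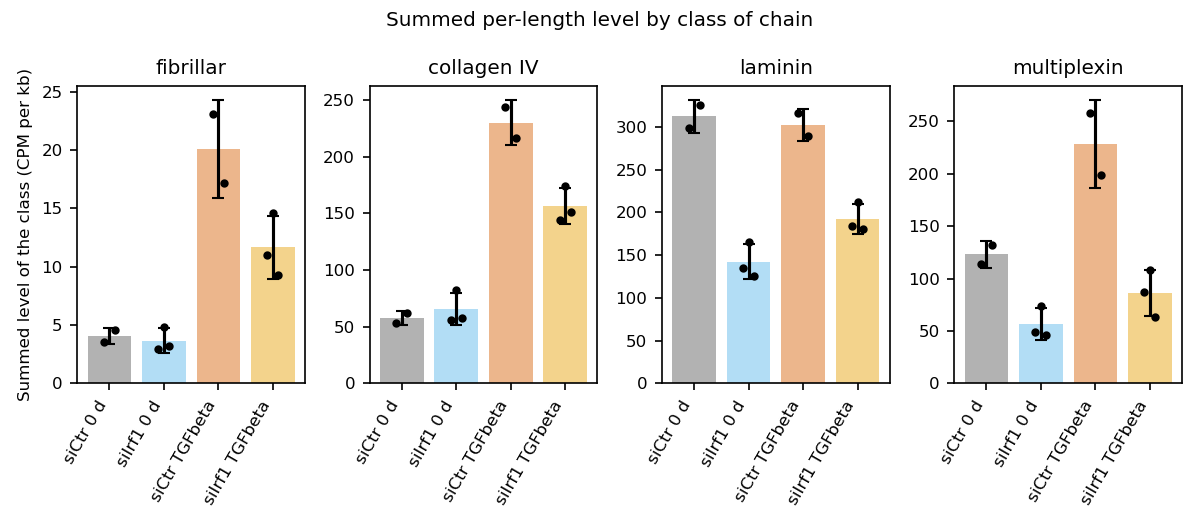
Summed level per kb of fibrillar, collagen IV, laminin and multiplexin chains (each panel with its own axis from 0), with bars for the group mean, error bars for the SD and points for the libraries. Fibrillar and collagen IV sums rise with TGFbeta, and the laminin and multiplexin sums are lower with the Irf1 siRNA in both conditions.

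The interaction asked whether the TGFbeta change differed between the siRNAs. It was called for 3 of 30 chains, 2 higher and 1 lower in siIrf1 cells, where 4.12% of all genes were called (2.80% higher, 1.32% lower). These were Col4a4 (1.90 ± 0.32, adjusted p = 0.00987), Col15a1 (1.65 ± 0.31, adjusted p = 0.0158) and Lamc3 (-1.43 ± 0.32, adjusted p = 0.0379). No fibrillar chain was called by edgeR or by DESeq2. By edgeR 0 of 6 had an unadjusted p under 0.05, where 2380 of all 13135 genes did, so that 6 chains could show little here. Of these 6, Col5a3 had no usable test, with 0 counts in both groups without TGFbeta. Col24a1 had 1 count in siCtr 0 d and 0 in siCtr TGFbeta, so its test could show little. With the trend removed 9 chains were called, 5 higher and 4 lower, where 746 of 13135 genes were called higher and 493 lower. The added chains were Col4a1 (-0.78), Col7a1 (-1.14), Col9a3 (-3.98), Lama5 (0.82), Lamb2 (0.89) and Lamc1 (0.83). As counted, Col7a1 had -1.16 ± 0.40 (adjusted p = 0.155) and Col4a1 -0.77 ± 0.27 (adjusted p = 0.166). The Col4a4 call was absent without siCtr TGFbeta replicate 2 (2.06) or 3 (1.63), and that of Col15a1 without those (1.69 and 1.46), siCtr 0 d replicate 1 (1.59) or siIrf1 0 d replicate 1 (1.63). With the replicate block Lamb2 was called (1.15) and Lamc3 was not (-1.29). Lamc3 was uncalled in 10 of 17 alternatives, at -1.30 to -1.57 when a library was left out. Without siIrf1 0 d replicate 1, 1 chain was called, where 189 of 13121 genes were called higher and 83 lower. Leaving out any siCtr library left 1 library in its group. Without siCtr 0 d replicate 1 or either siCtr TGFbeta library, fewer chains were called, and fewer of all genes tested as well. Without siCtr 0 d replicate 3 no chain call was lost, and more of all genes tested were called.

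**Figure D5:**
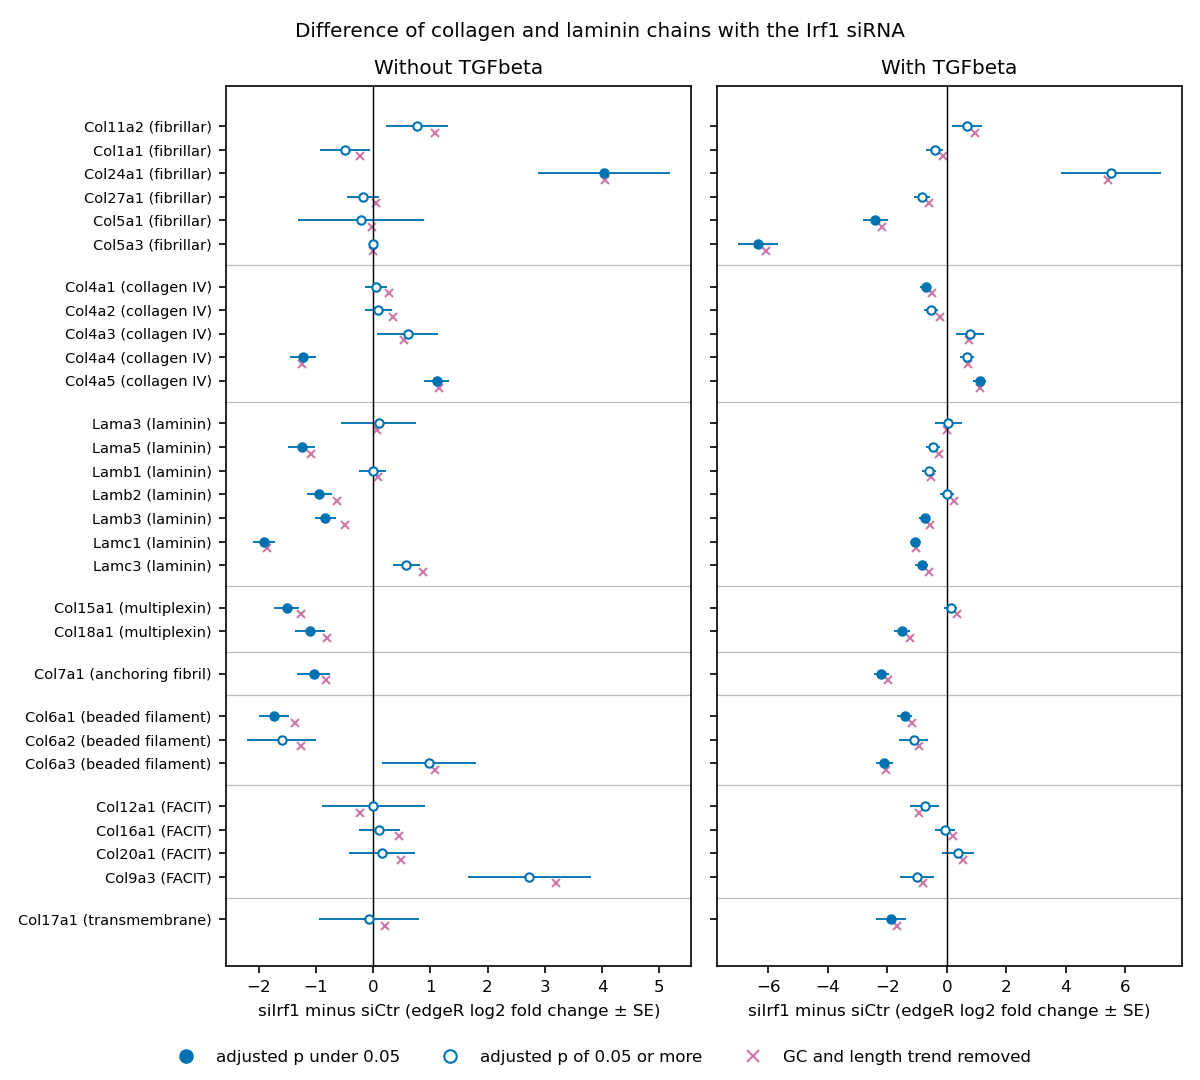
Difference between siIrf1 and siCtr cells for tested chains (edgeR log2 fold change ± SE) without TGFbeta (left) and with it (right), filled where the adjusted p was under 0.05, with crosses for the value with the GC and length trend removed. The filled laminin, multiplexin and collagen VI symbols lie below 0, Col4a5 lies near 1.1 in both panels, and the crosses keep the sign of the called chains shown.

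Genes that make and process collagen were counted beside the chains. Of 25 such genes tested, 10 rose and 2 fell with TGFbeta in siCtr cells (32.5% of all genes called) and 11 rose and 2 fell in siIrf1 cells (21.3%), with median changes of 0.80 and 0.65. Bmp1, the protease that cleaves procollagen C-propeptides, rose by 3.24 ± 0.19 and 2.80 ± 0.15, and its enhancer Pcolce2 by 4.65 ± 0.30 and 2.45 ± 0.24. The lysyl hydroxylase Plod2 rose by 4.62 ± 0.50 and 2.38 ± 0.37, and the crosslinking enzyme Loxl1 by 5.50 ± 0.49 and 5.00 ± 0.35. With the Irf1 siRNA 3 were higher and 8 lower without TGFbeta (31.8% of all genes called), and 2 and 6 with it (18.0%). Of 26 basement membrane partners and receptors tested, 6 rose and 6 fell in siCtr cells and 5 rose and 4 fell in siIrf1 cells, with medians of -0.02 and 0.17, against the same shares of all genes. The linker of laminin and collagen IV networks Nid2 fell by 4.42 on the log2 scale (-4.42 ± 0.29) in siCtr and by 1.84 in siIrf1 cells, while Pxdn, which crosslinks collagen IV, rose by 2.74 ± 0.19 and 1.68 ± 0.15. The laminin receptor Bcam fell (-2.32 ± 0.34 and -1.64 ± 0.27), as did Fras1 (-3.55 ± 0.58 and -1.21 ± 0.35), a basement membrane protein of epithelia. With the siRNA 6 were higher and 7 lower without TGFbeta, and 5 and 3 with it.

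Markers of fibroblasts and pericytes, cells that make much fibrillar collagen, rose with TGFbeta in their sum, though only 3 of 10 could be tested. The sum was 0.182 to 0.196 CPM in siCtr 0 d and 20.7 to 22.9 CPM in siCtr TGFbeta. In siIrf1 cells it was 0.611 to 0.879 CPM without TGFbeta and 15.3 to 20.8 CPM with it. Of the 3 tested, 2 rose with either siRNA, where 16.1% of all genes rose in siCtr and 11.6% in siIrf1 cells. Lum, Thy1, Fap and Mfap5 of that list were at 0 in every library. Their part in the results was not tested. Endothelial markers (6 listed, Emcn at 0) summed to 0.498 to 0.628 CPM without TGFbeta and 1.78 to 6.64 CPM with it, and epithelial markers to 6973 to 14755 CPM over all libraries. The epithelial list held genes that moved in both directions: of 9 tested, 4 rose and 3 fell with TGFbeta in siCtr cells, and 2 rose and 2 fell in siIrf1 cells. In siCtr cells the tight junction gene Cldn4 rose by 8.47 ± 0.60, the keratins Krt7 by 2.78 ± 0.29 and Krt18 by 0.95 ± 0.20, and Grhl2, an epithelial transcription factor, by 1.35 ± 0.34. Krt19 fell there (-2.99 ± 0.36), as did Ocln (-1.23 ± 0.22) and Cdh1 (-0.87 ± 0.16), the gene of E-cadherin. In siIrf1 cells Cldn4 (6.12 ± 0.42) and Krt7 (0.87 ± 0.22) rose and Krt19 (-1.17 ± 0.28) and Ocln (-1.005 ± 0.179) fell. The part of these markers in the chain results was not tested. Immune markers summed to 1.73 to 2.58 CPM without TGFbeta, 6.36 to 6.87 CPM in siCtr TGFbeta and 1.90 to 2.96 CPM in siIrf1 TGFbeta, with Adgre1 and Cd3e at 0. Adipocyte markers (Plin1 at 0) summed to 0.707 to 0.766 CPM in siCtr TGFbeta and 2.11 to 4.15 CPM in siIrf1 TGFbeta. The 1 adipocyte gene tested rose with TGFbeta in siIrf1 cells only (11.6% of all genes rose there). Basal and myoepithelial markers summed to 11.1 to 24.1 CPM. Of 4 tested, 1 rose and 1 fell in siCtr cells (32.5% of all genes called), and 2 rose and 1 fell in siIrf1 cells (21.3%).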

How the data were processed

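RNA-seq was done on 10 libraries of NMuMG/E9 cells, from total RNA with a stranded TruSeq kit on a HiSeq 2500, per the labels' protocols. The authors deposited raw counts per gene with a gene length in bases, which was deposited beside the counts and used for levels per kb. Reads were aligned with STAR to mm10 (GRCm38), per the submitters' processing notes; for the STAR version, the tool that counted reads and its strand setting, nothing is given in the sources used here. Entrez IDs were named from RefSeq (24374 of 24454 genes) and GENCODE (7), and the 73 unnamed genes, with 0.211 to 1.50% of counts, stayed in the fit.

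Counts were fitted in edgeR 4.0.16 (R 4.3.3, limma 3.58.1; TMM factors, filterByExpr, robust quasi-likelihood test, 6 residual degrees of freedom) over all 4 groups. Benjamini-Hochberg adjustment covered 13135 genes at 0.05, SE is the log2 fold change over the root of F, and CPM are counts over the TMM effective size. The reported fit has no replicate term. Same-numbered libraries of siIrf1 0 d and siIrf1 TGFbeta deviated together (correlations 0.14, 0.45 and 0.30). Replicates 1 and 3 of these groups did so across numbers too (0.12 and 0.28). Other same-numbered pairs did not throughout (-0.39 to 0.45 in all). The replicate number entered only alternatives, as a block. Sample titles also give same-numbered libraries of all groups a shared code, whose meaning the labels do not state. The script was tested on simulated data. Alternatives were DESeq2 1.42.0, other size factors and filters, only the groups compared, the replicate block, a GC and length trend removed (splines with 5 degrees of freedom, GC known for 99.1% of genes tested) and each library left out. Totals of 27547649 to 67301646 counts set the precision, and intervals (exact, 95%) and the floor of 3 counts cover counting error only. A chain is counted in the totals and is not reported here by name. Values per library are given for tested fibrillar, collagen IV and laminin chains and for other chains called in a comparison of 2 groups, and other genes are at most 4 called genes per list with the smallest adjusted p for TGFbeta in siCtr cells, beside Irf1 and cell type markers. The chains and gene lists were chosen with earlier results of these data known.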

Additional observations from a re-analysis of the deposited data

Results flagged for a closer look

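For 3 chains the TGFbeta change differed between the siRNAs by the test of the difference itself (edgeR's quasi-likelihood test, adjusted over all genes tested). The TGFbeta change of Col4a4 was higher by 1.90 on the log2 scale in siIrf1 than in siCtr cells. That of Col15a1 was higher by 1.65. That of Lamc3 differed by -1.43, being lower in siIrf1 cells. In Col4a4 and Col15a1 the siIrf1 libraries were below the siCtr libraries without TGFbeta, and with TGFbeta they were above them in Col4a4 and overlapped them in Col15a1.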

How the results depend on the processing

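Of 70 calls over the 5 comparisons 46 held under every alternative run (19 of 24 and 15 of 18 for TGFbeta in siCtr and siIrf1 cells, 6 of 12 and 6 of 13 for the siRNA without and with TGFbeta, 0 of 3 for the interaction). Of 2583 chain results under alternatives 2446 kept their side of the threshold, 78 lost a call, 59 gained one and 0 changed the sign of a called value. Uncalled values could change sign, as that of Lamb2 for the siRNA with TGFbeta did in 8 of 18 alternatives. With the GC and length trend removed the interaction was called for 9 chains, and with the replicate block as well for 7. Of 13135 genes, 746 were called higher and 493 lower in the first setting, and 552 and 376 in the second. With the replicate block alone the counts called were 25, 18, 13, 15 and 3 in the order above. The block changed no chain call for TGFbeta in siIrf1 cells. Of 13135 genes, 2068 rose and 2279 fell with TGFbeta in siCtr cells, and 1647 and 1399 in siIrf1 cells. For the siRNA 2591 were higher and 2642 lower without TGFbeta, and 1112 and 1118 with it. For the interaction they were 382 and 140. With 1 library left out, the number of all genes called varied too. The chain counts below thus do not describe chains alone. For the siRNA without TGFbeta, 2692 of 13102 genes were higher and 2500 lower without siIrf1 TGFbeta replicate 2. Without siIrf1 0 d replicate 3, 1174 of 13098 were higher and 1071 lower. With TGFbeta, 1672 of 13102 were higher and 1304 lower without siIrf1 TGFbeta replicate 2. Without siIrf1 TGFbeta replicate 1, 877 of 13112 were higher and 693 lower. Leaving out any siCtr library left 1 library in its group. Leaving out 1 library gave 19 to 26, 15 to 18, 8 to 13, 6 to 15 and 0 to 4 chains.

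The fibrillar minus basement membrane median was 2.16 for TGFbeta in siCtr cells with trend removal and block, 4.01 with only the groups compared, and 2.20 to 4.01 with a library left out. In siIrf1 cells it was -0.26 with DESeq2, -0.59 with only the groups compared, 2.60 under the stricter filter and -0.58 to 0.62 with a library left out. For the siRNA without TGFbeta it was 0.62 with multiplexins counted as basement membrane chains, 0.18 with only the groups compared, 0.0240 under the stricter filter and -0.17 to 0.39 with a library left out, and with TGFbeta -0.32 to 0.0372. For the interaction it was -0.19 with trend removal and block, -0.10 with the block, and -1.01 to -0.24 with a library left out. Fewer fibrillar chains were tested in some of these settings. The cause was not tested otherwise. Not divided by length, fibrillar shares were 0.913, 1.57, 2.89 and 2.92%. Chains with few counts, such as Col5a3, Col24a1 and Col9a3, are limited by depth.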
